A study of Arabidopsis thaliana with 14 samples.

Results

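A set of 61 probe sets, of 22746 that were not controls, gave high signal in both regions of the young Arabidopsis seed coat and low signal in the embryo and the endosperm. They were chosen on mean signals of the deposited arrays. The lower of the means in the general and the chalazal seed coat had to reach 1000, and it had to be at least 8 times the highest mean of the embryo proper and the micropylar, peripheral and chalazal endosperm. Of 2725 probe sets over that floor, 63 also met the fold, and BAN and bZIP44 were set aside because the rule leaves out a short list of symbols. The platform annotation named 29 of the 61 by a single gene, all different, of which 7 carry a symbol and 22 only a locus number, while 32 had no gene name and are described by their probe set. The contrast between the seed coats and the embryo and endosperm made the choice, so it is given below as values without a test.

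All tissue came from Arabidopsis thaliana of genotype Ws-0, from plants aged 38 to 46 days that were kept in continuous light at 20 °C. Siliques of 1 to 1.1 cm were fixed and embedded, and a laser freed each compartment from sections of seeds whose embryo proper held 2 to 8 cells. The 7 groups, of 2 biological replicates each, were the general seed coat, the chalazal seed coat, the embryo proper, the 3 endosperm regions and sections of whole seeds. No group carried a mutation or a treatment. From 2 to 5 ng of RNA was amplified per sample and hybridised to an ATH1 array, which reads the transcript of a gene with a probe set. The labels do not say which plants gave which region, so a p-value measures the spread between these arrays, and the peripheral endosperm is called cellularized in its source label.

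The seed coat is maternal tissue that grows from the integuments of the ovule and encloses the embryo and endosperm. Its cells become specialised for protection, for tannin and mucilage production and for wall thickening, and its chalazal region lies where the vascular strand of the mother ends and nutrients pass to the seed. Class III peroxidases, the family of the marker PRXR1, are secreted haem enzymes that use hydrogen peroxide to oxidise phenolic compounds and so stiffen or loosen cell walls. Thionins are small cysteine-rich peptides of plant defence.

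The labels of the compartments were set against genes that mark them. BBM, an embryo transcription factor and the only embryo marker with a named probe set, gave 581 to 680 in the embryo proper and at most 125 on any other array. The summed signal of 4 endosperm markers was 1899 to 11850 in the endosperm regions, 620 to 761 in the embryo proper and 311 to 544 in the seed coats, and no marker was at 0. Only 2 phloem and unloading zone markers had a named probe set, and their summed signal was 77.9 to 148 in the chalazal seed coat, 82.4 to 110.3 in the general seed coat and 11.8 to 215 in the embryo and endosperm, so these markers did not tell the chalazal seed coat from the rest. DFR, an enzyme of the tannin pathway, gave 12694 to 32225 in the seed coats and 256 to 4314 in the embryo and endosperm, so transcript of this seed coat gene was read there too. In captured tissue, fewer cells of a type and less RNA per cell cannot be told apart. Signals are in linear units scaled by the submitters to a common mean, and probe sets differ in how brightly they read a transcript. Differences are therefore given between arrays for the same probe set, and medians or sums over many probe sets are descriptions of an array.

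The lower seed coat mean of the 61 ran from 1089 to 19637 with a median of 2911, and their highest mean in the embryo and endosperm from 50.6 to 1657 with a median of 172. The ratio of these values had a median of 13.8 and reached 119.6, in PRXR1. It was at least 16 in 23 probe sets and at least 32 in 8. Detection calls were not used. In 40 members at least 1 array behind the highest embryo or endosperm mean lay below the median of all probe sets on that array. In 5 of these both arrays did. Where the signal was that dim the ratio is an uncertain measure of the fold, and the order of ratios among members is not a ranking. In all 61, each of the 4 seed coat arrays lay above each of the 8 embryo and endosperm arrays, an order found in 5.59% of all probe sets and one that the rule makes likely. Set array against array, the lowest seed coat signal over the highest embryo or endosperm signal was at least 8 in 29 of the 61, with a median of 7.13 and a lowest value of 2.64. The members held 2.94% and 3.48% of the summed signal on the general seed coat arrays and 2.00% and 2.38% on those of the chalazal seed coat. They held between 0.0285% and 0.0854% on the embryo and endosperm arrays.

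**Figure D1:**
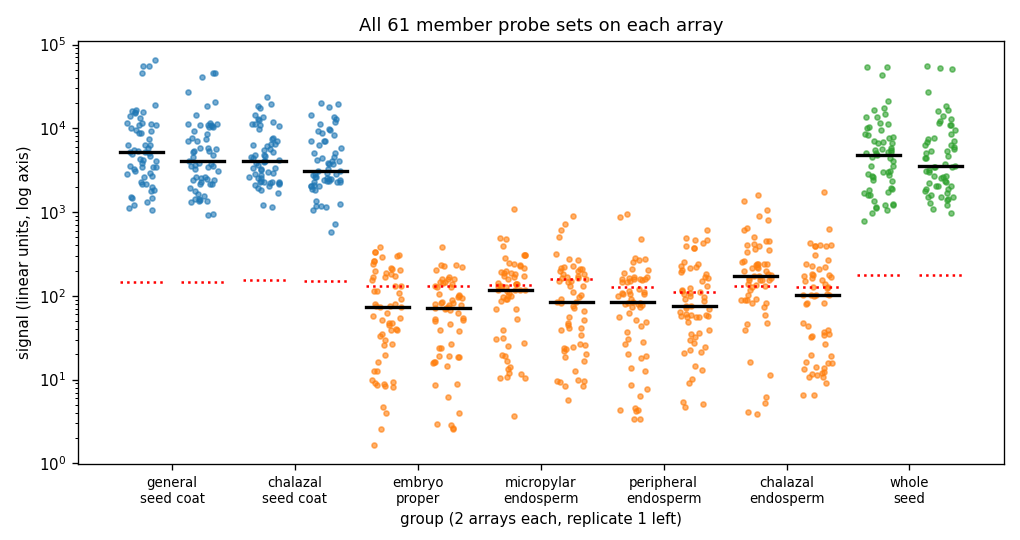
Each point is 1 of the 61 member probe sets on 1 array, with signal in linear units on a log axis and the 2 arrays of each group side by side. Black bars are the member medians and red dotted bars the medians of all probe sets on that array. Member medians are 3065 to 5157 on the seed coat arrays and 71.2 to 173 on the embryo and endosperm arrays, and the whole seed arrays lie with the seed coats.

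PRXR1 is a class III peroxidase gene on chromosome 4. Its signals were 13249 and 10839.5 in the general and 7089 and 5021 in the chalazal seed coat. They were 19.6 and 39.3 in the embryo proper. Among the endosperm regions the micropylar one gave 27.1 and 71.6, the peripheral one 18.1 and 14.6 and the chalazal one 89.3 and 12. The 4 seed coat signals were high and the 8 others were all low. All 8 lay below the median of all probe sets on their arrays and 5 below 35.9. The ratio of 119.6, the highest of the members, thus rests on dim signals and its size is uncertain. The general seed coat arrays both lay above the chalazal ones, yet the difference did not pass (log2 chalazal over general −1.002, SE 0.51, limma adjusted p = 0.307).

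Members with a role in the wall included TBL38 as well, of the trichome birefringence-like family that acts on the acetyl groups of wall polysaccharides. TBL38 gave 5125 and 3632 in the general and 11292 and 9896 in the chalazal seed coat. Its embryo and endosperm signals ran from 9.0 to 334. Both chalazal seed coat arrays were the higher ones, and the difference did not pass the test (1.29, SE 0.69, limma adjusted p = 0.332). BGLU28 encodes a beta-glucosidase, an enzyme that releases glucose from stored conjugates. Its signals were 2605 and 1360 in the general and 4635 and 4091 in the chalazal seed coat, against 16.7 to 269.5 in the embryo and endosperm, and the chalazal arrays again lay above the general ones without passing (1.19, SE 0.65, limma adjusted p = 0.347).

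THI2.1, a defence thionin that responds to jasmonate, had 54851 and 45158 in the general and 12017 and 7075 in the chalazal seed coat. The 8 embryo and endosperm arrays gave 2.6 to 509 for THI2.1, and the general seed coat arrays lay above the chalazal ones, which lay above all others. GILT belongs to a family of thiol reductases whose mammalian member reduces disulphide bonds of proteins in the lysosome. It gave 65611 and 45789 in the general and 17574 and 5871.5 in the chalazal seed coat, and 4.0 to 1098.5 in the embryo and endosperm. The lowest seed coat array of GILT was thus only 5.35 times its highest array elsewhere, a micropylar one.

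SP1L3 is a SPIRAL1-like gene, a family of small proteins that bind microtubules and guide cell elongation. It read 5477 and 3448 in the general and 4064 and 5093 in the chalazal seed coat. The 4 signals overlapped between both coats (0.07, SE 0.70, limma adjusted p = 0.976). In the peripheral endosperm SP1L3 read 482 and 373, its highest pair outside the coats. EMS1, a leucine-rich repeat receptor kinase known for setting cell fate in the anther, read 1229 and 949 in the general and 4733 and 3735 in the chalazal seed coat, and 26.9 to 164 in the embryo and endosperm. Both chalazal arrays lay well above the general ones.

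**Figure D2:**
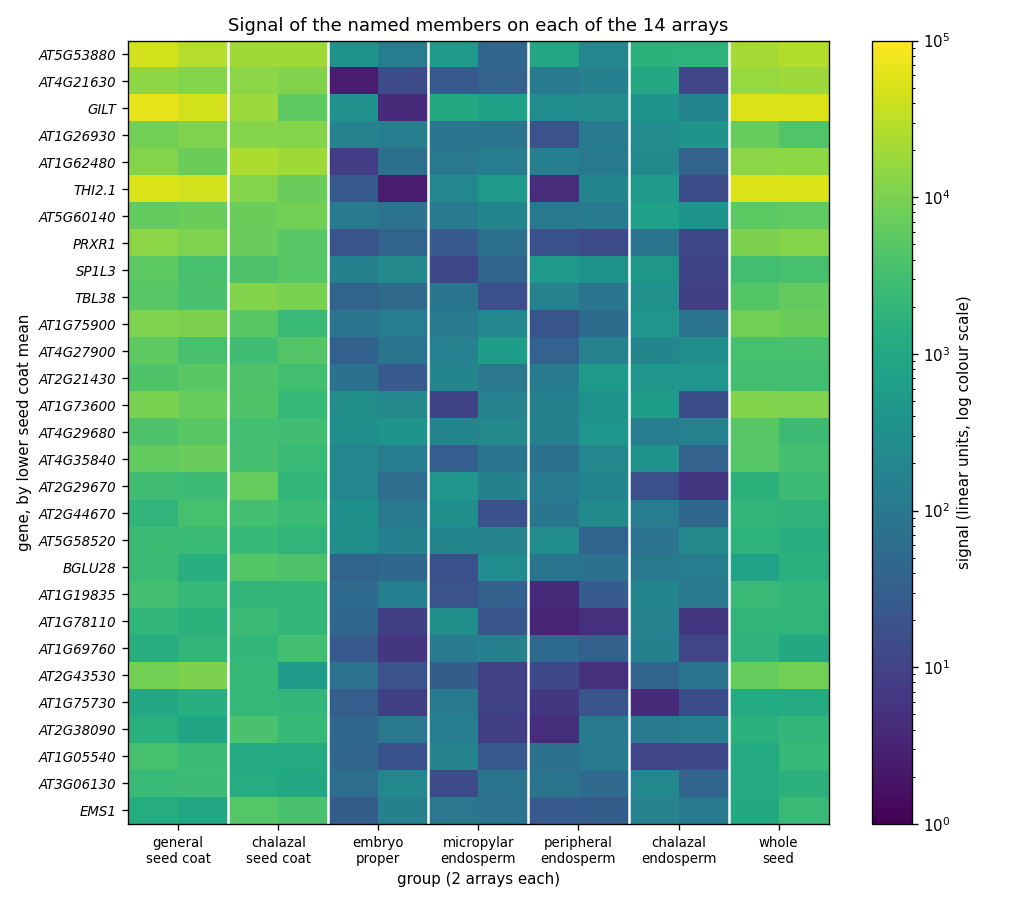
Rows are the 29 members with a gene name and columns the 14 arrays, 2 for each group, with signal in linear units on a log colour scale. The 4 seed coat columns and the 2 whole seed columns are bright in every row, and the 8 embryo and endosperm columns are darker, with bright pairs such as AT5G53880 at 1599.9 and 1715 in the chalazal endosperm and GILT at 1098.5 and 728 in the micropylar endosperm, and single bright cells such as AT4G21630 at 1052 on the first chalazal endosperm array.

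The 22 members known only by a locus number are described by value alone. AT5G53880 had 45709 and 27283 in the general and 19742 and 19533 in the chalazal seed coat, with 44.5 to 1715 elsewhere. AT1G62480 gave 11568 and 7695 in the general and 23749 and 19764 in the chalazal seed coat, with 8.2 to 242 elsewhere. AT1G26930 gave 8679 and 10785 in the general and 12427 and 11777 in the chalazal seed coat, with 18.9 to 391 elsewhere. In these genes the arrays of the coat regions were separate, with AT5G53880 higher in the general region and the other pair in the chalazal one. AT5G60140 gave 6347 and 7543 in the general and 7467 and 8691 in the chalazal seed coat. AT4G21630 gave 13968 and 11593.5 in the general and 13582 and 11288 in the chalazal seed coat. In both of these the coats overlapped.

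AT2G38090 gave 1486 and 925 in the general and 3684 and 2266 in the chalazal seed coat. AT1G05540 gave 3488 and 2530.4 in the general and 1157 and 1185 in the chalazal seed coat. The former was thus higher in the chalazal and the latter in the general region, with no overlap of arrays. AT2G21430 gave 4227 and 5192 in the general and 4083 and 3129 in the chalazal seed coat, and AT2G29670 gave 2943 and 2630.3 in the general and 6510.2 and 2063 in the chalazal seed coat. The general arrays lay above the chalazal ones in AT2G21430, and the chalazal arrays of AT2G29670 lay on either side of the general ones. A further 10 named loci that no rule for naming singled out had general seed coat means of 1213 to 8545, chalazal ones of 1982 to 3733 and a highest mean elsewhere of 62.1 to 386.

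For the 32 members without a gene name the lower seed coat mean ran from 1243 to 12805 and the ratio from 8.20 to 79.0 with a median of 15.1. For the 29 named members the lower seed coat mean ran from 1089 to 19637 and the ratio from 8.13 to 119.6 with a median of 12.4. The highest value of each measure was thus in a named member, while the median ratio was higher in those without a name.

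Members at the edge of the thresholds were close to genes that missed them. AT3G06130 (8.13) and EMS1 (8.15) had the smallest folds among the named members, and AT5G23760 (7.99) and AT2G05790 (7.85) fell just short. EMS1 and AT3G06130, with lower seed coat means of 1089 and 1145, also sat just above the floor. AT1G49450 at 988 and MYC4, a transcription factor of jasmonate responses, at 956 sat just below it. MYC4 had a fold of 14.8 and gave 1060.1 and 1095 in the general and 963 and 949.9 in the chalazal seed coat. The genes set aside by symbol met both thresholds, with a lower seed coat mean of 5209 and a fold of 64.3 for bZIP44, and 3603 and 8.84 for BAN.

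The named members lay on all 5 chromosomes, with 11 on chromosome 1, 6 each on chromosomes 2 and 4, 2 on chromosome 3 and 4 on chromosome 5. By the gene order of RefSeq none was next to another. The closest pair, AT1G75730 and AT1G75900, was 17 genes apart.

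The rule asked for high signal in both coat regions and did not set one against the other, so a difference was tested for each member. The seed coat arrays also chose the members, and the rule bounds the lower mean, so probe sets much dimmer in either region were less likely to enter. Counts of members beside those of all probe sets are therefore descriptions. Of the 61 members, 37 were brighter in the general and 24 in the chalazal seed coat. Both general seed coat arrays lay above both chalazal ones in 29 members (47.5%), against 23.2% of all probe sets, and the reverse held in 17 (27.9%), against 23.6%. The arrays overlapped in the other 15. The median fold between the replicate arrays of a region was 1.30 and 1.23 for members in the general and chalazal seed coat, and 1.67 and 1.62 for all probe sets. The part of these closer replicates in the count of separated arrays was not tested. The median ratio of general to chalazal mean was 1.24 for members, 1.00 for all probe sets and 1.02 for all with both means over the floor.

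A difference was called at a limma adjusted p under 0.05, adjusted over all 17336 probe sets tested, and at least 2-fold. By that rule 2 members (3.28%) were higher in the chalazal than in the general seed coat, against 4.18% of all tested, and 4 (6.56%) were lower, against 4.22%. Both shares were near the background in this fit. With a larger pseudocount of 100 the share higher was 4.92% against 5.08% of all, and the share lower was 14.8% (9 members) against 5.13%. The median log2 difference of members was −0.27, beside 0.02 for all tested. An unadjusted limma p under 0.05 was reached by 17 of the 61 members and by 3298 of all 17336 tested. The other 55 members were not shown to differ, at a median SE over members of 0.59 on the log2 scale. These counts moved with single arrays. No member was called higher without any 1 of the 4 seed coat arrays or peripheral endosperm replicate 2, and 1 was without peripheral endosperm replicate 1 or either whole seed array. The members called lower numbered 1 without chalazal seed coat replicate 2, 2 without either general seed coat array and 7 (11.5%) without either chalazal endosperm array, where 4.48% and 4.69% of all tested were lower.

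Among the named members GILT and AT2G43530 were lower in the chalazal seed coat. AT2G43530 gave 9154 and 10356 in the general and 2261 and 574 in the chalazal seed coat, and 5.1 to 83.0 in the embryo and endosperm. The chalazal arrays differed from each other by more than the general ones did and stayed below them. AT2G43530 fell by 3.05 on the log2 scale (SE 0.60, limma adjusted p = 0.00189), and without chalazal replicate 2 the adjusted p was 0.0906. GILT fell by 2.43 (SE 0.66, limma adjusted p = 0.0235), and the call was lost without chalazal replicate 2 (0.342), general replicate 1 (0.207) or general replicate 2 (0.0835). THI2.1 had the same size of difference (−2.43, SE 0.79) at a limma adjusted p of 0.0618, although its arrays did not overlap. It passed without a chalazal endosperm array (limma adjusted p 0.00833 and 0.00713) and without a peripheral one (0.0405 and 0.0427). These arrays enter only through the shared spread. It did not pass without any other single array.

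EMS1 rose in the chalazal over the general seed coat by 1.93 on the log2 scale (SE 0.57, limma adjusted p = 0.0395). The call was lost without any 1 of the 4 seed coat arrays (limma adjusted p from 0.130 to 0.243) and without peripheral endosperm replicate 2 (0.0504). The 3 other members called had no gene name. Probe set 259640_at gave 55354 and 40548 in the general and 10769 and 8388 in the chalazal seed coat (−2.31, SE 0.37, limma adjusted p = 0.000197), a call that held without each array in turn. Probe set 265058_s_at gave 16028 and 20696 against 4516 and 4442 (−2.02, SE 0.50, limma adjusted p = 0.0128) and was lost without any 1 of these 4 arrays. Probe set 260059_at gave 3424 and 2398 against 12977 and 13754.5 (2.21, SE 0.68, limma adjusted p = 0.0486) and was lost without any 1 of 10 arrays.

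**Figure D3:**
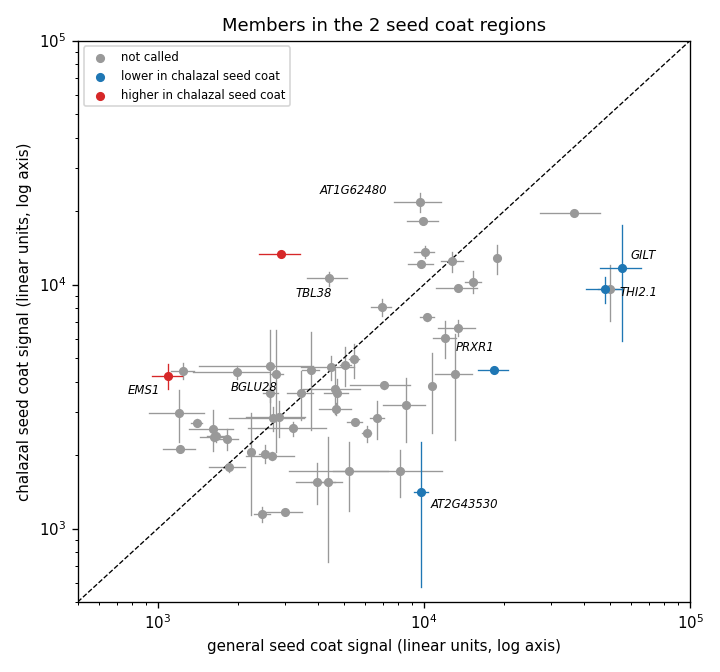
Each point is a member, with its mean signal in the general seed coat across and in the chalazal seed coat up, in linear units on log axes. Lines join the 2 arrays of each region and the dashed line marks equal signal. The 4 members called lower in the chalazal seed coat lie below the line and the 2 called higher lie above it, with THI2.1 beside GILT but not called.

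Within the embryo and endosperm, members gave little signal next to the coats. Of their 488 values there, 133 were below 35.9, the amount added before taking log2. That amount is the 25th percentile of all values, so this share was near that of all values. Differences between signals that low are understated on the log2 scale. The rule capped the highest of these means, and members entered the fit through their seed coat signal. The values below are therefore descriptions, nothing is read from their counts beside those of all probe sets, and no p of a single member is given. The highest of the 4 means was in the chalazal endosperm in 26 members, the micropylar endosperm in 21, the peripheral endosperm in 9 and the embryo proper in 5. Replicates were looser than in the coats, with a median fold between arrays of 2.09 to 2.47.

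In the chalazal endosperm, 7 members (11.5%) met the call for higher against the micropylar and peripheral regions together, where 11.4% of all tested did, and 1 (1.64%) met that for lower, where 16.1% did, or 2 without either micropylar array. AT5G53880 gave 1599.9 and 1715 in the chalazal endosperm, 484 and 44.5 in the micropylar region and 936 and 203 in the peripheral one. AT1G26930 gave 254 and 391 against 83.7, 92.3, 18.9 and 108. AT5G60140 gave 651 and 392 against 98.7 to 198. In each of these 3 genes both chalazal endosperm arrays lay above the 4 others. AT2G29670 lay the other way, with 16.4 and 6.6 against 111 to 398, and both of its chalazal endosperm signals were below 35.9.

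These values leaned on one array. Members had a median of 173 on the first chalazal endosperm array and 101 on the second, and 36 of 61 were brighter on the first, with a median ratio of 1.66 where all probe sets gave 1.00. On the first array 11 members were at least 10-fold above the second, and 1 the other way, while 5.49% and 5.11% of all probe sets were. The median log2 difference of members was 0.32, or −0.14 without the first array, with 6 members higher and 4 lower, and 0.76 without the second, with 14 higher and 1 lower. Of the 7, AT1G19835, 261149_s_at and 251555_at were lost without the first array, and 251555_at also without micropylar replicate 1 or peripheral replicate 1. Of genes higher in the coats, DFR (3984 and 4314) and BAN (378 and 437) were no higher on the first array than on the second. LCR69, described below, had a log2 difference of 2.39 for the chalazal against the other endosperm regions, or 0.82 without the first array. The cause of the gap between these arrays was not tested.

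In the embryo proper, 9 members (14.8%) met the call for lower against the 3 endosperm regions, where 12.6% of all tested did, and 0 met that for higher, where 15.2% did. An unadjusted limma p under 0.05, in either direction, was reached by 16 of the 61 members and by 6789 of all 17336 tested. AT2G21430 gave 75.0 and 26.9 in the embryo and 96.3 to 490.0 in the endosperm, with no overlap. GILT gave 335.5 and 4.0 in the embryo against 176 to 1098.5, so one of its embryo arrays lay inside the endosperm range. THI2.1 gave 25.7 and 2.6 in the embryo against 4.4 to 509, with overlap, and both embryo signals were below 35.9. The count of members lower in the embryo was 3 without embryo replicate 1, 1 without embryo replicate 2, 7 without the first chalazal endosperm array, when 2 were higher, and 16 without the second.

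The whole seed arrays had no part in the choice of members. In all 61 both whole seed arrays lay above all 8 embryo and endosperm arrays. That held for 10.4% of all probe sets and for 21.7% of those with both seed coat means over the floor, and the low arrays did choose the members. The whole seed mean of a member was a median of 16.8 times its highest embryo or endosperm mean, with a range of 6.82 to 223. It was a median of 84.6% of the general seed coat mean (37.4% to 207%) and 93.5% of the chalazal one (26.2% to 553%). For all 2725 probe sets with both coat means over the floor the median against the general seed coat was 90.8%. Members held 2.97% and 2.95% of the summed signal of the whole seed arrays, inside the range of the seed coats.

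The whole seed mean lay between the 2 seed coat means in 31 members, above both in 8 and below both in 22. On a log scale it was nearer to the general seed coat in 44 and to the chalazal in 17. Whole seed replicates were close, with a median fold of 1.15. PRXR1 gave 10243.5 and 12324 in whole seeds. GILT gave 53477 and 55281, and THI2.1 53549 and 51972. For GILT and THI2.1 these lay between the general seed coat arrays, for PRXR1 1 of them did and 1 lay below, and in all 3 genes they lay above the chalazal seed coat arrays.

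As a percent of the general seed coat mean, EMS1 (158%), AT2G38090 (152%), AT1G62480 (143%) and AT4G21630 (138%) were the highest of the named members. EMS1 gave 1071 and 2376 in whole seeds, AT2G38090 gave 1591 and 2070.5, AT1G62480 gave 13702 and 13839.6, and AT4G21630 gave 16637 and 18631. The first 3 of these had their higher signal in the chalazal seed coat. The lowest were AT1G05540 (55.6%), AT3G06130 (57.1%), BGLU28 (57.8%) and AT1G26930 (58.0%). BGLU28 gave 773 and 1517 and AT1G26930 gave 6914.5 and 4372 in whole seeds, both below every chalazal seed coat array of the same gene. Genes that were brighter in the chalazal seed coat thus stood at both ends of this order.

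**Figure D4:**
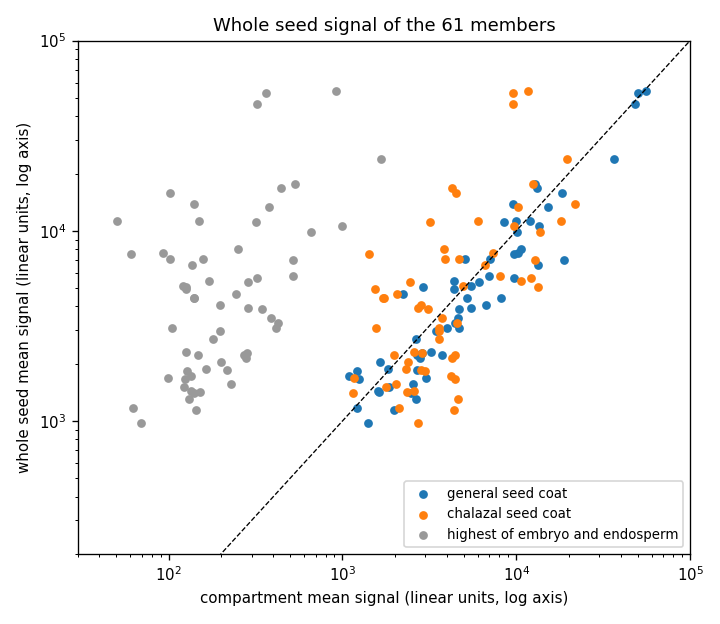
Each member appears 3 times, at its whole seed mean (vertical) against its mean in the general seed coat (blue), the chalazal seed coat (orange) and the highest of the embryo and endosperm (grey), in linear units on log axes with a dashed line of equal signal. Blue points lie along the line, at a median of 84.6%, and every grey point lies above it, by at least 6.82 times.

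PRXR1 was set among the other class III peroxidases, a list of 73 genes, 55 of them with a named probe set and 18 tested. In both seed coats against the embryo and endosperm, where 20.9% of all tested probe sets were higher and 13.1% lower, 5 of the 17 others were higher and 1 was lower, with a median difference of −0.15 beside 0.03 for all. AT5G14130 gave 3870.2 and 7652 in the general and 7035 and 9937 in the chalazal seed coat, but also 3620.2 and 2739 in the chalazal endosperm, against 24.9 to 240.5 in the other 6 embryo and endosperm arrays (4.57, SE 0.28, limma adjusted p = 1.1e-10). AT2G37130 (2.20), AT1G71695 (1.96), AT3G28200 (1.53) and AT5G40150 (1.40) were the others that were higher, with limma adjusted p from 2.68e-05 to 0.00304. AT4G31760 was lower (−2.10, limma adjusted p = 0.00123). None of these 17 met the rule that PRXR1 met. Between the coat regions AT2G22420 alone of the list was called, lower in the chalazal seed coat (−2.65, SE 0.48, limma adjusted p = 0.000852).

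**Figure D5:**
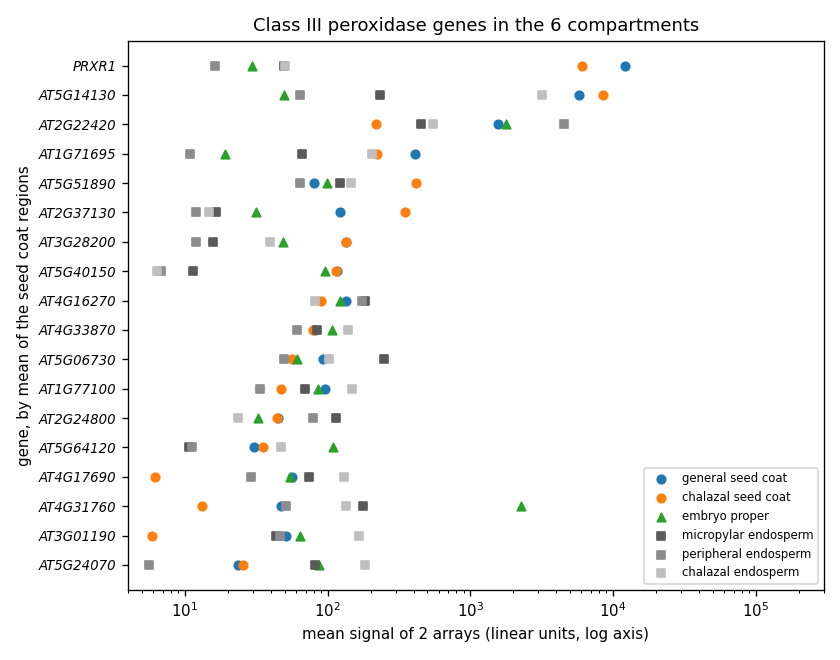
Each row is a tested class III peroxidase gene, with its mean signal of 2 arrays in each of the 6 compartments in linear units on a log axis. Rows are to be read within a gene. PRXR1 has seed coat means of 12044 and 6055 and all 4 others at or below 50.6, while AT5G14130 has a chalazal endosperm mean of 3179.8 between its seed coat and other means.

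THI2.1 belonged to a list of 11 thionin, defensin and PR genes, of which 4 others were tested. Of these LCR69, a defensin-like gene, was higher in the mean of both coats than in that of the embryo and endosperm (4.21, SE 0.59, limma adjusted p = 7.92e-06). In the chalazal against the general seed coat, where THI2.1 had −2.43, LCR68 (6.82, SE 0.65, limma adjusted p = 5.51e-07) and LCR69 (4.23, SE 0.96, limma adjusted p = 0.00643) were higher, the latter not without chalazal replicate 2 (0.0710) or general replicate 2 (0.123). LCR68 gave 8964 and 8447 in the chalazal and 56.4 and 29.2 in the general seed coat, with 7307 and 6561 in the embryo proper.

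The other lists held few tested genes and no member. The first values here set the mean of the 2 coats against the mean of the embryo and endosperm groups. DFR (3.59) and BAN (3.97) of 3 tannin pathway genes were higher in the coats. So were ARA12 (3.16), a subtilase needed for mucilage release, and INO (1.35), a regulator of the outer integument, of 2 seed coat genes. BAN met both thresholds of the rule and was set aside only by symbol, so its value is a description. The limma adjusted p of DFR, ARA12 and INO ran from 9.53e-10 to 0.00536. A higher mean does not show that a gene is high in each coat. INO gave 523 and 763 in the general but 90.9 and 44.5 in the chalazal seed coat, against 7.2 to 129.7 in the embryo and endosperm. HCT of the lignin pathway, the only one tested, was higher too (2.29, limma adjusted p = 5.61e-06). Of 5 wall expansin and xyloglucan genes EXPA4 (1.87) and EXGT-A3 (1.67) were higher, and of 3 starch genes APL4 (2.38) and SBE2.2 (2.099), with limma adjusted p from 2.01e-06 to 0.000713. The embryo marker BBM (−1.29) and the endosperm markers AGL62 (−3.55), MPC (−3.25) and IKU1 (−1.35) were lower, with the call of BBM lost without chalazal replicate 1 (0.0548) or 2 (0.0555) or general replicate 1 (0.130). Between the coat regions EXPA4 was higher in the chalazal seed coat (4.24), and INO (−2.73), XTH16 (−2.33), EXGT-A3 (−3.01) and MPC (−1.96) were lower, with limma adjusted p from 3.55e-05 to 0.0290. The call of EXPA4 held without each array. Those of INO (0.0789 and 0.0667 without chalazal or general replicate 2), EXGT-A3 (0.0780 without general replicate 2), XTH16 (0.0868 to 0.186 without any 1 seed coat array) and MPC (0.0700 to 0.199 likewise, and 0.0502 without peripheral replicate 2) did not. No gene of the cutin and suberin list had a named probe set, and none of the phloem list was tested.

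Over the 14 arrays the named probe sets whose log2 signal followed PRXR1 most closely were AT1G75900 (Pearson r 0.985), AT3G18930 (0.982), AT3G06750 (0.980), AT1G12330 (0.977), CYP71B6 (0.976) and AT2G25520 (0.976). The arrays share groups, so these are descriptions. Only AT1G75900 was a member, with 10929.7 and 10488 in the general and 5228 and 2474 in the chalazal seed coat. Of the rest, AT3G18930, AT3G06750, CYP71B6 and AT2G25520 had a lower seed coat mean under 1000, and AT1G12330 a fold of 4.94.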

How the data were processed

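The deposited values were linear intensity values, 1 per probe set and array, made by the submitters with GCOS, per the submitters' processing notes, whose version is not given in the sources used here. With 2% of values trimmed at either end, every array had a mean of 500.04 to 500.07. Detection calls were not used here, and the number of arrays limits the precision. The members and gene lists were chosen with earlier results of these data known.

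The signal plus 35.9 (their 25th percentile) was put on a log2 scale. Tests kept the 17336 of 22746 probe sets for which both arrays of some group exceeded their own 40th percentile. The log2 values were fitted with a mean per group by limma 3.58.1 in R 4.3.3, with a variance trend, 7 residual and 13.4 prior degrees of freedom, two-sided tests and Benjamini-Hochberg adjustment. The fit was tested on simulated data. Alternatives covered the pseudocount, filter, normalization, variance trend, replicate block, thresholds and each array left out. Named probe sets (13513) follow the platform annotation, matched to RefSeq for gene order. The 11 lists held 237 genes, 86 with a named probe set and 41 tested.

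Members with a gene name are described where they are PRXR1, have the highest seed coat means, the highest ratios or whole seed shares at either end, sit at a threshold, are called (up to 6 per direction in the coats, 3 elsewhere) or are on a list. Members without a gene name are described where called between the coats, chosen after their values were seen. The labels do not say whether the same replicate number pairs arrays across groups, and the arrays were not treated as paired. Correlations of replicate differences were −0.0279 to 0.043 over 21 pairs of groups. Python 3.11.15 and matplotlib 3.10.9 made the figures. No sequences are shown and promoters were not analysed here.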

Additional observations from a re-analysis of the deposited data

How the results depend on the processing

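The 61 members became 156 at a fold of 4, 23 at a fold of 16 and 29 on single arrays, 60 after quantile normalization (57 of them shared), and 55 to 74 without each array in turn. In the coat comparison a pseudocount of 1 called 444 probe sets higher and 478 lower, with 0 members higher and 1 lower. A pseudocount of 100 called 9 members lower. With no filter, with no variance trend and with the replicate block, 1 member was higher, and the block gave 5 lower. Whether replicate numbers pair arrays across groups is not known from the labels, and the block called 718 probe sets higher and 729 lower. Without each array in turn, 400 to 812 probe sets were higher and 397 to 845 lower, with 0 to 3 members higher and 1 to 7 lower. The counts of members within the embryo and endosperm describe values that the rule bounded. In the chalazal endosperm comparison 4 members were lower at a pseudocount of 1, and 2 under the stricter filter and under quantile normalization. Without each array in turn 6 to 14 members were higher and 1 to 4 lower, beside 1594 to 1992 and 1934 to 2797 of all probe sets. In the embryo comparison 5 members were lower at a pseudocount of 100 and 2 with no variance trend. Without each array in turn 0 to 2 members were higher and 1 to 16 lower, beside 1399 to 2805 and 1101 to 2330 of all probe sets. The whole seed median of 84.6% became 89.0% after quantile normalization and 82.3% to 95.3% without each array, alternatives chosen after seeing the data. In both seed coats against the rest, 3223 to 3700 probe sets were higher and 1983 to 2402 lower without each array. There the median over all tested probe sets went from 0.03 to −0.08 with quantile normalization. The cause was not tested for any of these changes. Of 1612 gene values under alternatives, 1411 stayed as they were, called or not called, 196 lost a call, 5 gained one and 0 changed sign. They include PRXR1 and THI2.1 between the coats, which were not called. Promoter motifs were not run. Low signals near 35.9 limit what can be said of members in the embryo and endosperm.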
